A study of Mus musculus with 4 samples.

Results

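Cytosolic ribosomal protein genes were examined in small-intestinal organoids of 2 mice kept with vehicle or with a liver X receptor (LXR) agonist. The members are the protein-coding genes whose symbol is Rps or Rpl followed by a number (with a closing a, x, y or l and 1 further digit allowed), together with Rpsa, Rplp0, Rplp1 and Rplp2, and without the Rps6k kinases and the named pseudogenes. The rule found 83 genes among 30284, and 79 of them had enough counts to be tested among 13602 genes. Rps27, Rpl10l, Rpl3l and Rpl39l were not tested.

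Each cytosolic ribosome is built from a small subunit, which reads the mRNA, and a large subunit, which joins amino acids. Both hold ribosomal RNA and 1 copy of most of these proteins, and the acidic stalk of the large subunit (Rplp0, Rplp1, Rplp2) recruits translation factors. The mRNAs of these proteins begin with a terminal oligopyrimidine (TOP) tract, through which growth signals by way of mTOR and Larp1 set their translation and stability. They are short and abundant, and the mouse genome holds many processed copies of them.

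Organoids are 3-dimensional epithelial cultures, grown here in Matrigel from small-intestinal crypts of male C57BL/6J mice. From each mouse 1 culture received DMSO and 1 received 2 µM GW3965, a synthetic agonist of the nuclear receptors LXRα and LXRβ, for 6 h, so that each treatment had 2 libraries. The labels name no genetic change. They give an age of 9 weeks under a field worded for day 0 of a DSS experiment (dextran sulfate sodium, an agent that injures the colon), while the growth protocol of these cultures mentions no DSS. The 2 treatments share the mice, strain, medium and time. Each culture was sequenced once, so a difference within 1 mouse has no replicate of its own.

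The libraries held 16572359 to 19486547 estimated counts. The GW3965 library of mouse 1 stood apart, with 14.01% of gene counts on mitochondrially encoded transcripts, against 7.60 to 9.43% in the other 3. The 8 markers of intestinal epithelium, all detected, summed to 22944 in counts-per-million units (CPM) in that library and to 28509 to 31233 CPM in the others. The 13 tested immune markers of 15 summed to 194 CPM there and to 77.0 to 96.0 CPM elsewhere, with Itgam listed at 0 in both libraries of mouse 2 and Adgre1 at 0 to 2 counts in all 4. Mesenchyme and endothelium, with 5 tested markers of 11, summed to 30.5 CPM in that library and to 16.7 to 20.7 CPM elsewhere. The 12 markers of small-intestinal cell types, all tested, summed to 8021 CPM there and to 6064 to 6676 CPM elsewhere. They were divided, though: 7 of the 12 had more CPM with GW3965 than with DMSO in mouse 1, with a median log2 difference of 0.03. The colon markers, of which 3 of 6 were tested, summed to 27.9 to 31.8 CPM. In such bulk RNA, a change in the number of cells of a type and a change in RNA per cell cannot be told apart.

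Ribosomal protein genes took 4.07 to 5.57% of gene counts, and the GW3965 libraries of the 2 mice lay on opposite sides of the DMSO libraries. In mouse 1 the 83 genes held 4.53% of gene counts with DMSO and 5.57% with GW3965. In mouse 2 they held 4.71% with DMSO and 4.07% with GW3965. The DMSO libraries were therefore close together, at 4.62% ± 0.12 (SD, n = 2), and the GW3965 libraries lay far apart, at 4.82% ± 1.06 (SD, n = 2). The difference of the means was 0.20 percentage points, made of 1.04 points in mouse 1 and -0.63 points in mouse 2. An exact two-sided permutation test over the 4 libraries gave p = 1.0, and 2 against 2 cannot give less than 0.333. The sign of the difference rested on 1 library: leaving out GW3965 of mouse 1 gave -0.55 points, and leaving out GW3965 of mouse 2 gave 0.95 points.

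The same order held when the share was taken in other ways. Transcripts-per-million units (TPM) divide by transcript length. The members held 10.1% of TPM with DMSO and 11.3% with GW3965 in mouse 1. In mouse 2 they held 10.6% with DMSO and 9.49% with GW3965. Such a division does not remove a difference between libraries that goes with length. Adding the 252 genes that copy a member, described below with their sequences, gave 5.78% and 7.21% of gene counts in mouse 1 and 5.99% and 5.18% in mouse 2. Leaving out the mitochondrial genome gave 4.91% and 6.48% in mouse 1 and 5.20% and 4.46% in mouse 2.

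**Figure D1:**
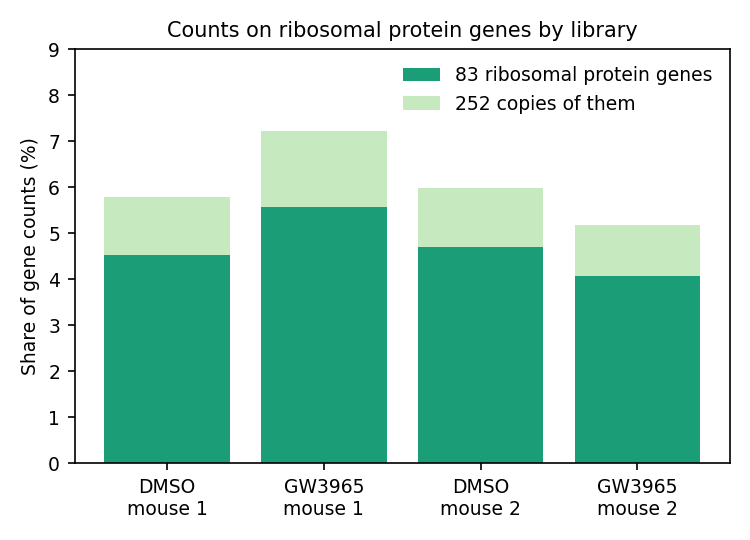
Share of gene counts (percent, vertical axis) on the 83 ribosomal protein genes (dark) and on their 252 copies (light) in each of the 4 libraries; there is 1 library per bar and no error bar. The GW3965 bar of mouse 1 is the highest at 7.21% in all and the GW3965 bar of mouse 2 the lowest at 5.18%.

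Although the proteins are needed in near-equal numbers, the levels listed for their genes were not equal. Mean TPM over the 4 libraries ran from 47.6 (Rpl5) to 3986 (Rps14), with a median of 1301 over the 79 tested genes. The highest 6 were Rps14, Rplp1, Rps24, Rpl41, Rps18 and Rpl35a. Rps14 (ENSMUSG00000024608.11, GRCm38 chr18:60747098-60778546, plus strand), a protein of the small subunit platform, had 3800 TPM with DMSO and 4909 with GW3965 in mouse 1, and 3910 with DMSO and 3324 with GW3965 in mouse 2. Its GW3965 values thus lay on both sides of its DMSO values. Rplp1, of the stalk, was second in mean TPM at 3151 and ranged from 2995 to 3308 TPM, a narrower spread than that of Rps14. Rps24 (mean 2879 TPM), Rpl41 (2632), which encodes the shortest of these proteins, Rps18 (2506) and Rpl35a (2347) followed.

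The lowest 6 were Rpl5, Rpl7l1, Rpl12, Rpl27, Rpl13a and Rpsa. Rpl5, which with Rpl11 forms the complex that holds back Mdm2 when ribosome assembly fails, had 44.8 and 58.4 TPM in mouse 1 (DMSO, GW3965) and 46.5 and 40.6 TPM in mouse 2. Rpl12, at the base of the stalk, had a mean of 97.2 TPM, Rpl27 one of 129.9 TPM and Rpsa, the laminin receptor precursor, one of 279.8 TPM. For 4 of these 6 genes most of the counts of the gene and its copies were assigned to copies: Rpl5, Rpl12, Rpl27 and Rpsa. Rpl7l1 (mean 61.8 TPM), a nucleolar relative of Rpl7 that acts in assembly, had no such copy. Rpl13a (217 TPM) had 0.87% of its pooled counts on its single copy.

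**Figure D2:**
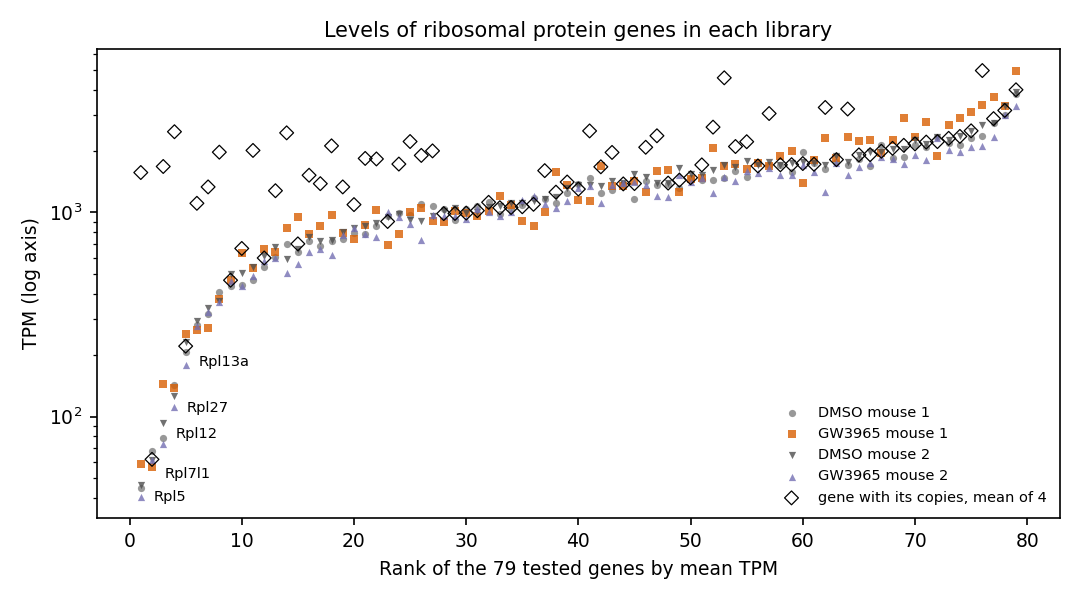
TPM (log axis) of the 79 tested ribosomal protein genes, ordered by mean TPM, with 1 point per library and an open diamond for the mean of the gene summed with its copies. Several of the lowest genes, such as Rpl5 at 47.6 TPM, reach above 1000 TPM with their copies, while Rpl7l1 at 61.8 TPM does not move.

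The counts of many members cannot be separated from those of other genes, because reads of 50 bases fit both and the counting program divides them. A gene was taken as a copy of a member when at least 50% of its 31-base words occur in the member's transcripts. This gave 252 copies, 242 of them annotated as pseudogenes, and 51 had a mean of at least 100 counts. Copies held over 50% of the pooled counts of 13 members, at least 20% in 31, and under 1% in 41. With copies added, the ratio of the 90th to the 10th percentile of mean TPM was 2.93 over 80 genes, against 4.93 over the 79 tested genes alone. The ratio of the highest to the lowest mean moved little, from 83.8 to 80.2, since Rpl7l1 has no copy.

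Rps27, a zinc finger protein of the small subunit, shows the limit of such counts. It was listed at 0 in all 4 libraries, while Rps27rt, an intronless gene on chromosome 9, had 13294 and 16448 counts in mouse 1 (DMSO, GW3965) and 15778 and 14175 in mouse 2. Of the 31-base words of Rps27, 98.7% occur in Rps27rt, and the coding sequences are identical over 252 bases. Rpl5 had 860 to 1169 counts and its copy Gm15500 had 19124 to 27827, with 891 identical coding bases. Rpl12 had 1023 to 1823 counts and its copy Gm10275 had 10780 to 16115, with 495 identical bases. Rpl27 and Rpl27-ps3 were identical over 408 coding bases, Rpl31 and Rpl31-ps8 over 375, Rpl27a and Gm7536 over 444, and Rpl10 and Rpl10-ps3 over 642. A read that lies within such a stretch does not say which gene it came from.

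The first 50 coding bases of 3 such pairs are given because member and copy have the same coding bases, with an intron in the member and none in the copy. Outside the coding part the transcripts can differ: of the 31-base words of Rpl5, 25.2% occur in Gm15500, and of those of Rpl12, 16.3% occur in Gm10275. Capitals mark the bases that come from the second coding exon of the member. In the member an intron lies where lower case turns to capitals, and in the copy the 50 bases are continuous. The members lie at chr5:107900644-107901916 (Rpl5, plus strand), chr3:90213258-90213615 (Rps27, minus) and chr2:32961803-32962061 (Rpl12, plus). The copies lie at chr7:114706114-114706163 (Gm15500, minus), chr9:114982658-114982707 (Rps27rt, minus) and chr10:29699241-29699290 (Gm10275, minus), all on GRCm38.
Rpl5 and Gm15500: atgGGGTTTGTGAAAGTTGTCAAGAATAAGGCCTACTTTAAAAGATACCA
Rps27 and Rps27rt: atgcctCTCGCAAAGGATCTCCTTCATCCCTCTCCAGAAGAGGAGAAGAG
Rpl12 and Gm10275: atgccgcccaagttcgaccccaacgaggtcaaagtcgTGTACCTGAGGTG

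Other pairs differ at single coding bases, so that among reads within the coding part only those over these bases separate them. Outside the coding part these transcripts can differ as well, and reads there can separate the pair. Rpl11 (chr4:136052614-136052663, minus strand) and Gm10288 (chr3:146839238-146839287, minus) differ at 1 of 534 coding bases, G86A, with positions counted from 1 at the A of the start codon and the member's base first. Rpl35 (chr2:39004188-39004780, minus, across an intron) and Gm2000 (chr1:156366169-156366218, plus) differ at 1 of 369, C117T. The windows of 50 bases around these positions follow, with the differing base in capitals.
Rpl11: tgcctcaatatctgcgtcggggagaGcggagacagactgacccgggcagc
Gm10288: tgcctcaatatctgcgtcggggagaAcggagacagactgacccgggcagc
Rpl35: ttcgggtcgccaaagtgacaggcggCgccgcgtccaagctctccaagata
Gm2000: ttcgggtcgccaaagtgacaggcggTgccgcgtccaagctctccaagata
Even so, copies held 65.7% of the pooled counts of Rpl11 and 78.1% of those of Rpl35. Rpsa and Rpsa-ps10 differ at 6 of 885 coding bases, and copies held 58.1% of the pool of Rpsa.

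**Figure D3:**
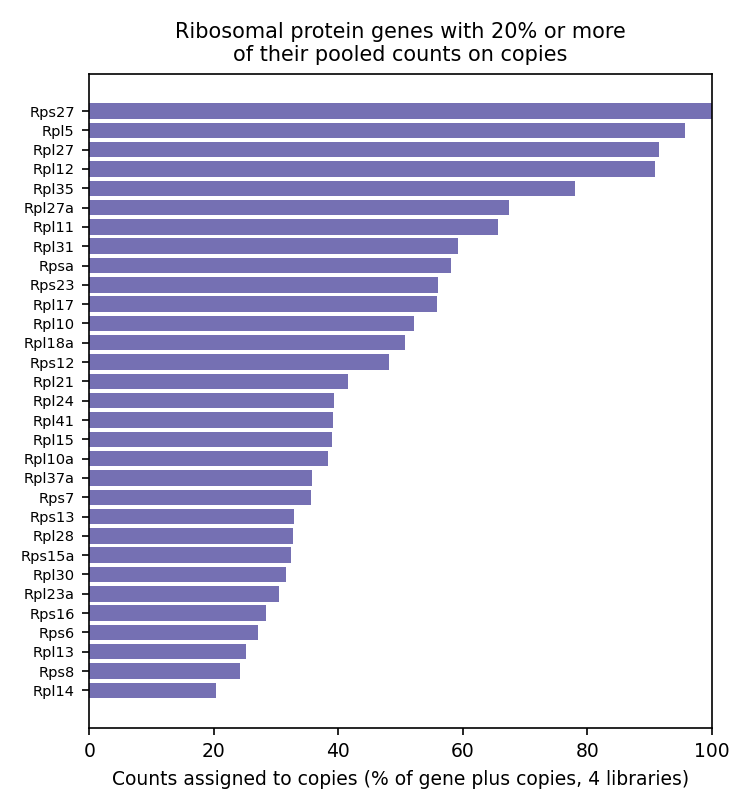
Counts assigned to copies as a percent of the counts of a gene and its copies over the 4 libraries (horizontal axis), for the 31 ribosomal protein genes at 20% or more. Rps27 stands at 100%, followed by Rpl5 at 95.7%, Rpl27 at 91.5% and Rpl12 at 90.8%.

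No ribosomal protein gene differed between GW3965 and DMSO by the test. With edgeR's quasi-likelihood test and Benjamini-Hochberg adjustment over 13602 genes, 0 of the 79 members had an adjusted p under 0.05, where 0.0588% of all tested genes did (8 genes). At an unadjusted p under 0.05 the count was also 0 of 79, against 1.05% of all genes. DESeq2, limma-voom and edgeR with the mouse as a block called 0 members as well, against 0.147%, 0.147% and 0.353% of all genes, and each had 0 members at an unadjusted p under 0.05, against 0.728%, 1.15% and 1.7%. The log2 fold changes of the members ran from -0.18 (Rps2) to 0.39 (Rpl12), with a median of 0.08 beside 0.00 over all genes. Of the 79, 60 had a value above 0, against 50.0% of all genes. The median standard error of a member was 0.25 on the log2 scale. The median turned with 1 library: leaving out GW3965 of mouse 1 gave -0.14, with 3 of 79 members at an unadjusted p under 0.05, against 4.34% of all genes. Leaving out GW3965 of mouse 2 gave 0.27, with 30 such members, against 23.5% of all genes, and 0.0502 as the smallest adjusted p of a member. Neither fit called a member after adjustment, against 0.389% and 0.595% of all genes. Leaving out DMSO of mouse 1 or of mouse 2 gave 0.01 and 0.16.

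Behind these small averages the members lay on opposite sides in the 2 mice. In mouse 1, 70 of 79 had more CPM with GW3965 than with DMSO, against 49.8% of all tested genes. In mouse 2, 79 of 79 had less, against 50.7% of all genes. Both held for 70 members, against 33.5% of all genes, and the other 9 were below 0 in both mice, against 17.2%. The median log2 difference was 0.38 in mouse 1 (range -0.26 to 0.96) and -0.22 in mouse 2 (range -0.52 to -0.01). The GW3965 library of mouse 1 was the highest of the 4 for 63 members, against 37.3% of all genes, and that of mouse 2 the lowest for 56, against 27.5%. Both held for 49 members, against 19.2%. The difference between the mice was not tested, since each mouse had 1 library per treatment.

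The members kept an order in this opposition: those furthest above 0 in mouse 1 were furthest below 0 in mouse 2. Across the 79 members the log2 differences of the 2 mice had a Pearson r of -0.81 and a Spearman rho of -0.82, beside -0.14 and -0.36 over all tested genes. These are descriptions across genes of the same 4 libraries, and genes are not independent replicates. Both subunits and the stalk shared the pattern. The 31 small subunit genes had medians of 0.41 and -0.27 (mouse 1, mouse 2), the 45 large subunit genes 0.32 and -0.21, and the 3 stalk genes 0.30 and -0.21.

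**Figure D4:**
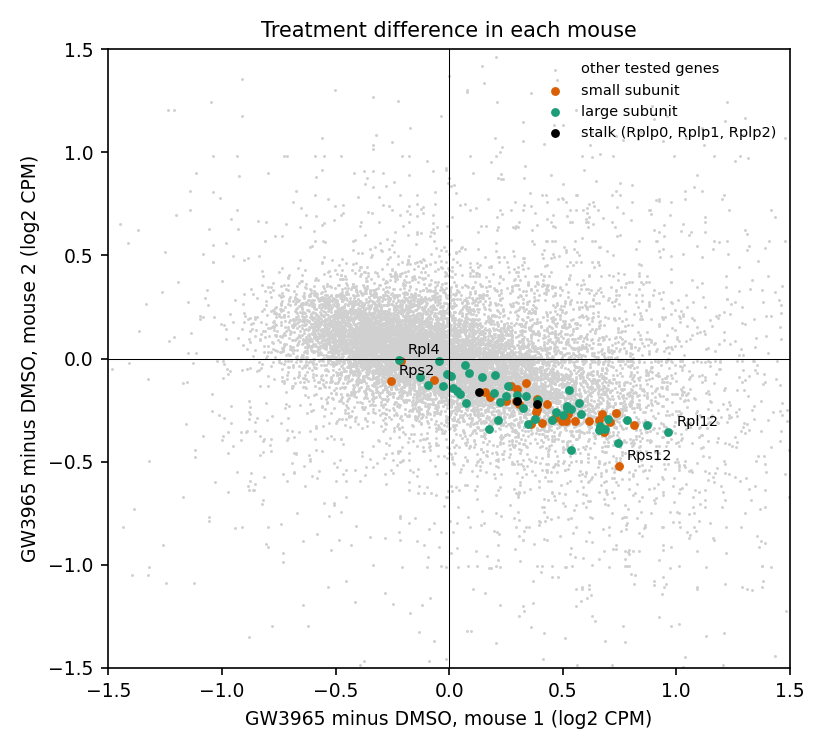
Log2 difference in CPM between GW3965 and DMSO in mouse 1 (horizontal) and in mouse 2 (vertical), with 1 point per gene; coloured points are the 79 tested ribosomal protein genes and grey points the other tested genes, of which 268 lie outside the axes. All 79 coloured points lie below 0 on the vertical axis, and 70 lie above 0 on the horizontal axis.

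The pattern was as large for the genes with the smallest share of counts assigned to copies. That share does not measure how much of a gene's sequence occurs in other genes. Among the 38 tested members with under 1% of their pooled counts on copies, 32 were above 0 in mouse 1 and 38 below 0 in mouse 2, with medians of 0.37 and -0.22 and an r of -0.87. For the 80 genes with copies added, 70 were above 0 in mouse 1 and 80 below 0 in mouse 2, with medians of 0.38 and -0.22 and an r of -0.88. The authors' deposited table of log2 CPM, scaled in a way not given in the sources used here, lists 79 members. There, 74 were above 0 in mouse 1 and 78 below 0 in mouse 2, with medians of 0.26 and -0.25. The shares over all genes of that table were not taken. With its scaling unknown, these counts only describe the listed values.

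The members with the smallest unadjusted p above 0 were Rpl12, Rpl34, Rps27l, Rpl22l1, Rps27a and Rpl9, and in each of them the GW3965 library of mouse 1 was the highest and that of mouse 2 the lowest. Rpl12 (ENSMUSG00000038900.17, chr2:32961559-32965345) had 56.9 CPM with DMSO and 111 CPM with GW3965 in mouse 1, and 68.8 and 53.7 CPM in mouse 2. Its GW3965 values enclosed its DMSO values, and its log2 fold change was 0.39 ± 0.30 (SE, n = 2 per treatment; edgeR adjusted p = 1.00). With its copies, Rpl12 differed by 0.69 in mouse 1 and -0.28 in mouse 2.

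Rpl34 (chr3:130726831-130730398), of the large subunit, had 526 and 963 CPM in mouse 1 (DMSO, GW3965) and 609 and 488 CPM in mouse 2. Copies held only 0.03% of its pooled counts. Rps27l, the p53-inducible paralogue of Rps27, had 191 and 335 CPM in mouse 1 and 206 and 165 CPM in mouse 2. It had no copy. The log2 fold changes of Rpl34 and Rps27l, 0.35 ± 0.32 and 0.33 ± 0.32 (SE), were of the size of their errors.

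Rps27a encodes a ubiquitin fused to a small subunit protein and had 485 and 806 CPM in mouse 1 and 544 and 453 CPM in mouse 2. Rpl9, of the large subunit, had 885 and 1438 CPM in mouse 1 and 975 and 796 CPM in mouse 2. Rps12 was the member furthest below DMSO in mouse 2: it had 448 and 752 CPM in mouse 1 and 493 and 344 CPM in mouse 2, so that its log2 differences were 0.75 and -0.52. Of its 31-base words 90.4% occur in other genes, and with its copies the differences were 0.81 and -0.31.

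Among members below 0, both GW3965 libraries lay below both DMSO libraries for 5: Rps2, Rpl28, Rpl29, Rps26 and Rpl8. That is 6.33% of the members, against 9.18% of all genes, and no member had both GW3965 libraries above, against 9.28% of all genes. Rps2 (ENSMUSG00000044533.15, chr17:24718116-24721929), near the mRNA entry of the small subunit, had 1471 and 1231 CPM in mouse 1 (DMSO, GW3965) and 1382 and 1282 CPM in mouse 2. Its log2 fold change was -0.18 ± 0.24 (SE; edgeR adjusted p = 1.00). Rpl28 had 583 and 533 CPM in mouse 1 and 564 and 531 CPM in mouse 2, Rpl29 had 502 and 471, then 527 and 482, and Rps26 had 577 and 552, then 613 and 570. Rpl8, named after its values were seen, had 870 and 855 CPM in mouse 1 and 908 and 828 CPM in mouse 2. Rpl4 and Rps4x were below DMSO in mouse 1 and nearly level in mouse 2, with log2 differences of -0.22 and -0.01 for Rpl4 and -0.21 and -0.01 for Rps4x.

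The stalk proteins and other members with known roles outside the ribosome lay within the same range. Rplp0, the scaffold of the stalk, had 1827 and 2001 CPM in mouse 1 (DMSO, GW3965) and 1852 and 1656 CPM in mouse 2, and Rplp2 had 482 and 592, then 536 and 464. Rps6, the substrate of the S6 kinases, had 826 and 1015 CPM in mouse 1 and 973 and 879 CPM in mouse 2. Rpl11, the partner of Rpl5 in holding Mdm2, had 233 and 286, then 224 and 198. Rps19, whose human counterpart is the gene most often mutated in Diamond-Blackfan anaemia, had 660 and 969, then 720 and 584. In all 5 the GW3965 library was above DMSO in mouse 1 and below it in mouse 2, and none passed the test. Rpl13a had log2 differences of 0.54 and -0.44, and Rpl41 of 0.74 and -0.41.

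Of the pairs of related genes, those known for expression in muscle or testis were all but undetected. Rpl3l, the striated muscle form of Rpl3, Rpl10l, the testis form of Rpl10, and Rpl39l, the testis form of Rpl39, had 0 to 1 counts per library. Their common partners had means of 990 TPM (Rpl3), 945 TPM (Rpl10) and 598 TPM (Rpl39). Rpl22l1, a paralogue whose level Rpl22 is known to hold down, had a mean of 504 TPM and Rpl22 one of 1055 TPM. Both had the order of most members, with log2 differences of 0.78 and -0.30 for Rpl22l1 and 0.52 and -0.24 for Rpl22. Rps27l had a mean of 701 TPM, while its partner Rps27 was listed at 0 with its copy at 3877 to 4799 TPM. Rpl7 had a mean of 1378 TPM.

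Between the mice no member passed the test either with all 4 libraries. With treatment as a covariate, edgeR called 0 of 79 members at an adjusted p under 0.05, against 0.684% of all genes, and 0 at an unadjusted p under 0.05, against 5.01%. DESeq2 and limma-voom also called 0, against 0.206% and 0.603% of all genes, and had 0 at an unadjusted p under 0.05, against 2.32% and 4.34%. Without a term for treatment and without the DMSO library of mouse 1, a fit added after seeing the data, edgeR called 28 of 79 members lower in mouse 2, against 9.3% of all genes, and 0 higher, against 10.6%. That fit sets GW3965 of mouse 1 alone against both libraries of mouse 2. In the fit with all 4 libraries and treatment as a covariate, the median log2 difference of mouse 2 from mouse 1 was -0.15. The DMSO libraries alone gave the other direction: 71 of 79 members had more CPM in mouse 2, against 50.9% of all genes, with a median of 0.14. Rpl38, of the large subunit, had 199 CPM with DMSO in mouse 1 and 282 CPM in mouse 2, and Rps29 had 258 and 339 CPM. In the edgeR fit with all 4 libraries, Rpl35 had the smallest unadjusted p between the mice, 0.0949, with a log2 difference of -0.45.

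Other short mRNAs lay on the same sides in the median. Ribosomal protein transcripts were short, with a median length of 729 bases beside 2631 over all tested genes. The 928 other coding genes under 1000 bases had medians of 0.31 in mouse 1 and -0.16 in mouse 2, and 81.4% of them were above 0 in mouse 1 and 81.4% below 0 in mouse 2. The 11948 other coding genes of 1000 bases or more had medians of -0.04 and 0.01. The 62 members under 1000 bases had medians of 0.38 and -0.23, and the 17 longer members had 0.20 and -0.17. Within the members, length and the log2 difference had a Spearman rho of -0.38 in mouse 1 and 0.31 in mouse 2, while over all genes it was -0.23 and 0.34. These are again descriptions across genes. The share of mitochondrial transcripts and the sums of the immune, epithelial, mesenchymal and small-intestinal markers differed in the same GW3965 library of mouse 1. The part of length, of these cells and of the mitochondrial share in the members' values was not tested.

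Other parts of the protein synthesis machinery were compared through lists chosen by function. No gene of any of the 9 lists was called between GW3965 and DMSO, where only 0.0588% of all tested genes were. The 5 ribosomal proteins outside the symbol rule had medians of 0.38 in mouse 1 and -0.23 in mouse 2. Among them, Fau, fused to a ubiquitin-like protein, had 143 and 191 CPM in mouse 1 (DMSO, GW3965) and 162 and 138 CPM in mouse 2. Rps27rt, whose reads cannot be told from those of Rps27 where their sequences are identical, had 683 and 1002, then 837 and 744 CPM. Rpl36al had log2 differences of 0.29 and -0.17, and Rpl37rt of 0.38 and -0.28.

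A list of other TOP mRNAs had another median in mouse 1. The 18 listed, such as elongation factors and Tpt1, had medians of -0.11 and -0.05, and 8 of 18 were above 0 in mouse 1. Tpt1, the translationally controlled tumour protein, had 1193 and 1540, then 1431 and 1289 CPM, and Naca, of the nascent chain complex, had 291 and 375, then 304 and 293 CPM. Eef1g, a subunit of elongation factor 1, had 738 and 603, then 712 and 678 CPM. The list thus held genes on both sides of 0 in mouse 1; its difference from the ribosomal protein genes was not tested.

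Factors that build or use ribosomes had medians below 0 in mouse 1 and near 0 in mouse 2. The 34 initiation and termination factors had -0.22 and 0.00, with 10 of 34 above 0 in mouse 1. Eif4a2, an RNA helicase of initiation, was among those above, with 226 and 379, then 242 and 212 CPM. The 43 ribosome biogenesis factors had -0.22 and 0.00, with 12 of 43 above 0 in mouse 1. Nolc1, a nucleolar phosphoprotein, had 96.8 and 60.8, then 74.0 and 79.3 CPM, and Bysl, needed for the small subunit, had 41.1 and 28.7, then 34.3 and 31.7 CPM. The 20 genes of growth control, with mTOR partners and Myc family members, had -0.13 and 0.03. Eif4ebp2, a repressor of cap-dependent initiation, had 72.7 and 45.5, then 65.1 and 74.4 CPM.

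The 78 mitochondrial ribosomal proteins are a separate set that serves translation inside mitochondria. They had medians of 0.16 and -0.16, with 54 of 78 above 0 in mouse 1 and 72 of 78 below 0 in mouse 2. Mrpl33 had 57.6 and 96.1, then 68.2 and 52.8 CPM. The 16 proliferation markers had -0.50 and -0.02, and Mcm2, of the replicative helicase, had 67.3 and 37.0, then 47.5 and 47.8 CPM. The 12 p53 targets had 0.04 and 0.05. Of the 10 snoRNA host genes listed, 1 was measured: Zfas1, itself a TOP RNA, had 48.6 and 98.9, then 67.5 and 43.7 CPM, a log2 difference of 1.02 in mouse 1 and -0.63 in mouse 2.

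**Figure D5:**
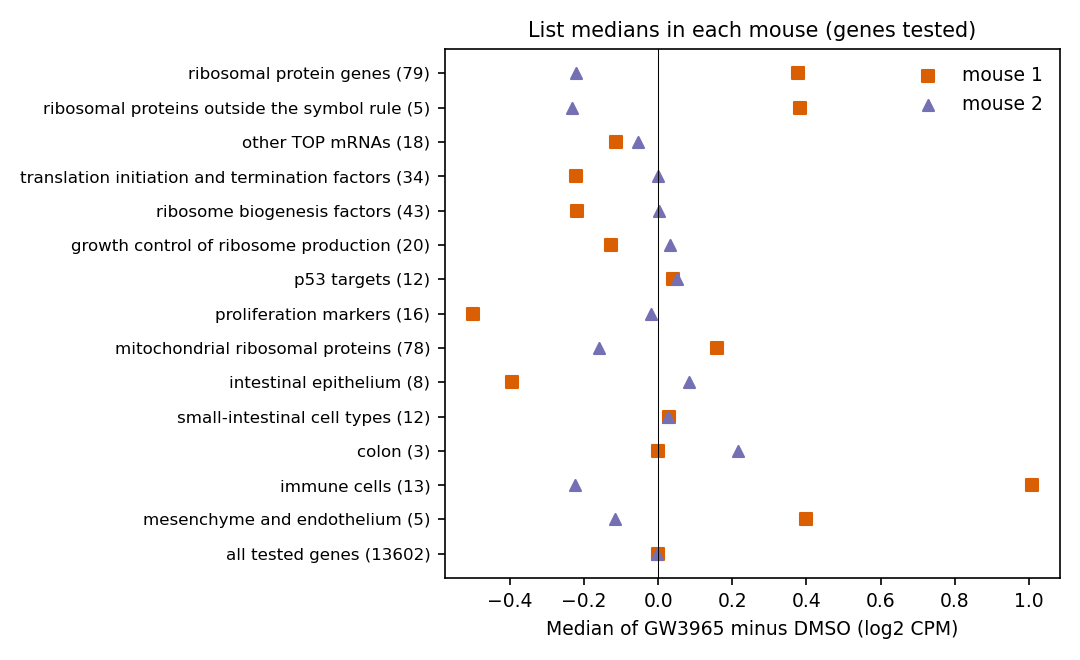
Median log2 difference in CPM between GW3965 and DMSO (horizontal axis) in mouse 1 (squares) and mouse 2 (triangles) for the ribosomal protein genes, for each list with at least 3 tested genes and for all tested genes; the number of tested genes is in parentheses, and there are no error bars because each mouse has 1 library per treatment. The ribosomal protein genes stand at 0.38 and -0.22 and the proliferation markers at -0.50 and -0.02.

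Transcript shares within the members were described as well. Of the members, 34 had at least 2 transcripts with 5% or more of the gene's counts, and the median absolute difference of a transcript's share between treatments was 1.04 percentage points. Rps24, known for tissue-specific splicing of its last exons, had 2 such transcripts. Rps24-201 held 69.1% and 68.7% of its counts in mouse 1 (DMSO, GW3965) and 66.1% and 64.5% in mouse 2. Rps19-205, annotated as a target of nonsense-mediated decay, held 51.6% and 52.7%, then 50.8% and 48.1%. The largest difference was in Rpl12, where Rpl12-203 held 35.5% and 21.7%, then 34.0% and 32.2%, a difference of -7.79 points. These shares rest on the same division of reads as the gene counts and were not tested.

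The start sites of the members were also searched for shared letters, and matches were not compared with the members' differences between GW3965 and DMSO. RefSeq windows (build GRCm38.p6) of 250 bases before to 50 after the start were at hand for 63 of the 83 members and for 27025 genes in all. The pyrimidine run CTTTCC, on either strand, occurred in the 50 bases around the start in 20.6% of the members and 5.45% of all genes, and in the 300-base window in 52.4% and 29.3%. The motif CCGGAAG, the core bound by ETS factors such as Gabpa, occurred in 15.9% and 3.81% of the 50-base windows and in 41.3% and 9.93% of the 300-base windows. The 2 motifs share the letters GGAA on one strand and can overlap. A match describes the letters of the window and is not a measured site. The 30 bases around the start are given for 5 members named above, with the pyrimidine run in capitals, to show where it lies against the start, which is between the first 15 and the last 15 bases. They lie at chr7:45128731-45128760 (Rpl13a, minus strand), chr7:4792950-4792979 (Rpl28, plus), chr2:39005117-39005146 (Rpl35, minus), chr16:33056467-33056496 (Rpl35a, plus) and chr11:114668565-114668594 (Rpl38, plus).
Rpl13a: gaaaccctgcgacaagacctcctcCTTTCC
Rpl28: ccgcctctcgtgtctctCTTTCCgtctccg
Rpl35: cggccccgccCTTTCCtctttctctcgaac
Rpl35a: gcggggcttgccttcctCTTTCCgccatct
Rpl38: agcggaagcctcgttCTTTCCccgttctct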

How the data were processed

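Per the labels' protocols, poly-A libraries (TruSeq Stranded mRNA) were read as single ends of 50 bases, from RNA with integrity values above 8; the extraction text speaks of colon, the tissue label of small-intestinal organoids. Tools named in the submitters' processing notes are kallisto, CASAVA 1.7 and FastQC, with build mm10. The authors deposited, per the file headers, estimated counts and TPM for transcripts. They also deposited a table of rounded counts and one of log2 CPM. Not given in the sources used here are the scaling of the latter, the annotation release and the use of strand.

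Of 88198 transcripts, 86119 matched GENCODE M21 (GRCm38); the others, 0.69 to 0.85% of counts, were left out. Of 353 member transcripts, 51 had another length in the files than in the sequences used for shared words, which limits those percentages. Gene sums were rounded and, after filterByExpr and TMM scaling, fitted with edgeR 4.0.16 under R 4.3.3 (glmQLFit and glmQLFTest; all 4 libraries, treatment alone; Benjamini-Hochberg, threshold 0.05). CPM are TMM-scaled, log2 CPM have a prior count of 2, and standard errors derive from the F statistic. DESeq2 1.42.0 and limma 3.58.1 were alternatives. The labels pair libraries by mouse; the deviations of paired libraries correlated at 0.072 across genes. The blocked fit and the fit between the mice each have 1 residual degree of freedom and borrow their variance from other genes. The main edgeR test was also run on simulated counts. These held no difference between mice and no outlying library, so they cannot show how the test handles either. In the main fit, p-values measure the spread between 2 cultures per treatment, each from a different mouse.

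The members and lists were chosen with earlier results of these data known. Named members are the 6 highest and 6 lowest by TPM, up to 6 each way by p for treatment and 4 each way between mice, those with most shared words, paralogue pairs and a set with known roles; of lists, up to 3 each way by p. Of the listed genes, 1 is not reported here. Proteins were not analysed here.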

Additional observations from a re-analysis of the deposited data

Results flagged for a closer look

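The treatment difference lay on opposite sides in the 2 mice. The median log2 difference of the 79 tested ribosomal protein genes between GW3965 and DMSO was 0.38 in mouse 1 and -0.22 in mouse 2. The share of gene counts in all 83 genes differed by 1.04 percentage points in mouse 1 and by -0.63 points in mouse 2. Each value compares 1 library with 1 library, and the difference between the mice was not tested.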

How the results depend on the processing

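The count of called ribosomal protein genes was 0 for treatment under DESeq2, limma-voom, other size factors, no filter, the mouse as a block, other sets of genes in the library size, the rounded table, both ways of pooling copies and each library left out; it was 0 between the mice under the same settings without the block, and with no term for treatment. With a library left out and treatment as a term, no residual degrees of freedom remain between the mice. Without that term, leaving out each library called 0 to 28 members, and 28 came only without the DMSO library of mouse 1. With the replicate block, the median log2 fold change was 0.07. The median ran from -0.14 to 0.27 with 1 library left out (the lone library of a treatment is then assumed to vary like the others), and from 0.01 (the authors' deposited log2 CPM table) to 0.09 under the other settings. The difference in the share of gene counts ran from -0.55 to 0.95 points with 1 library left out, and turned below 0 without the GW3965 library of mouse 1. It was 0.42 points without the mitochondrial genome and 0.31 points with copies added. Pooling copies of any type, the log2 CPM table and leaving out libraries between the mice were chosen after seeing the data. Of 160 values of named members with a library left out, 8 moved by more than the spread between libraries, as did 0 of 400 under other settings. Of the medians of the 9 lists, 4 of 36 moved so with a library left out and 2 of 89 under other settings. Counts of 0 to 1 per library for Rpl3l, Rpl10l and Rpl39l, and the assignment of reads between identical copies, limit what can be said of those genes.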
